A study of Homo sapiens with 4 samples.

Results

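The 35 genes described here make or regulate cholesterol and fatty acids. They were chosen by name for their role in lipid metabolism, a rule that uses no measured value, although earlier results of these data were known. These genes make up 35 of the 56304 genes in the count table. They comprise 5 regulators of the sterol regulatory element-binding proteins (SREBPs), 17 enzymes of sterol synthesis, 3 genes of sterol transport and export, 8 genes of fatty acid synthesis and desaturation, and 2 lipid droplet genes. The cells were MV3, a highly metastatic human melanoma line, and carried a histone H2B-GFP reporter in all samples. Spheroids of 50000 cells were kept in collagen I until day 2, and each zone was then punched out under the microscope, the core at 1 mm and the surrounding invasion zone at 3 mm diameter. Bulk RNAseq was done on 4 libraries in all, 2 of the core and 2 of the invasion zone, and the labels give no treatment for any of them. No source used here gives the number of spheroids per library. Left-over core was looked for in the invasion zone by its brighter fluorescence, and no such check is described for the core. The study cautions that the cut was vertical, so invading cells at the top and bottom may remain in the core sample.

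Cells hold SREBPs in the endoplasmic reticulum as long as sterols are plentiful. SCAP, the sterol sensor, escorts SREBPs to the Golgi when sterols run low, and INSIG proteins keep SCAP back when they are high. Cleaved SREBP then enters the nucleus, where SREBP2, the product of SREBF2, mainly switches on genes of cholesterol synthesis, and SREBP1c, a product of SREBF1, mainly genes of fatty acid synthesis. Liver X receptors (LXRs) respond to oxysterols instead and switch on sterol export through ABCA1 and ABCG1, as well as SREBF1 and SCD. Neutral lipids that are not used are stored in droplets coated by perilipins such as PLIN2.

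Because the regulators act at promoters, the 250 bases in front of the start site are shown for the genes on which the account turns and that the RefSeq table holds. RefSeq promoters (GRCh38.p14) were found for 30 of the 35 genes, with 40 windows because several genes have more than 1 start, and windows of the same gene may overlap. Capitals mark the letters of TCACNNCAC, a sterol regulatory element-like motif, of CCAAT, which binds NF-Y, a partner of SREBP, and reads ATTGG if it lies on the other strand, and of CACGTG, an E-box that basic helix-loop-helix factors can bind. INSIG1, HMGCS1 and SCD are shown as a regulator and 2 synthesis genes from different branches. SREBF2 and ABCA1 were added after the matches and values were seen, SREBF2 as the only gene with the sterol regulatory element-like motif and ABCA1 as the gene with the largest zone difference.
INSIG1, plus strand, chr7:155297628-155297877: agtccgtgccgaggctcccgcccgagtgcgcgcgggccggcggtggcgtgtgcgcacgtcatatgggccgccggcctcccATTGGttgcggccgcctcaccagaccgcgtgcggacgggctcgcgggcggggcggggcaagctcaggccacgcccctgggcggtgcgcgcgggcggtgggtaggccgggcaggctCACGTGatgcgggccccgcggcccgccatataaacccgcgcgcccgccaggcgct
HMGCS1, minus strand, the outer of its 2 starts, chr5:43313413-43313662: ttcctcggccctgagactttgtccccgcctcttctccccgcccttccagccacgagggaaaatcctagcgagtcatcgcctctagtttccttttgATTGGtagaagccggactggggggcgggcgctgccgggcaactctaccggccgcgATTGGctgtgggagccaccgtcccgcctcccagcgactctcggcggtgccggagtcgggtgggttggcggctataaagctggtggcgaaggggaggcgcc
SCD, plus strand, chr10:100346983-100347232: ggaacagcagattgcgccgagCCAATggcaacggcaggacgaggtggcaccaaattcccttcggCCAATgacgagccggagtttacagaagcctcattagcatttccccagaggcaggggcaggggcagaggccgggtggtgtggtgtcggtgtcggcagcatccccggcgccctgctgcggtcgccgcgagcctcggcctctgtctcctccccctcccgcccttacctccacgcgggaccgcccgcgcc
SREBF2, plus strand, chr22:41832855-41833104: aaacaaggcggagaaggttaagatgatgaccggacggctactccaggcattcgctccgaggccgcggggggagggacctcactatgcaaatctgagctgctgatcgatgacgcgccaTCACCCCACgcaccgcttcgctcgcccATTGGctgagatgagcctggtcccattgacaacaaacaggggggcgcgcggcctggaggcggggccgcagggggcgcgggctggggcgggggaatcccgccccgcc
ABCA1, minus strand, chr9:104928156-104928405: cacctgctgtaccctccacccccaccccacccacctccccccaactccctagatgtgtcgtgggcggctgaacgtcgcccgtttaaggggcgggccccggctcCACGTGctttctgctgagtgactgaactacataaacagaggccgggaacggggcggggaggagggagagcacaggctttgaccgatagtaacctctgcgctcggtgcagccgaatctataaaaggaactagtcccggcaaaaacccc
TCACNNCAC was read on both strands and was present in 1 of the 40 windows, that of SREBF2, where it begins 133 bases before the start. Of all 35116 promoter windows of this length, 2.88% held it. CCAAT on either strand was in 24 of the 40 windows, belonging to 20 of the 30 genes, against 32.0% of all windows. The windows of INSIG1, HMGCS1, SCD and SREBF2 each hold it, with 2 matches in HMGCS1 and in SCD. CACGTG was in 7 of the 40 windows (ABCA1, ELOVL5, INSIG1, PLIN2, SC5D and SCAP), against 6.34% of all windows. The 5-letter motif ACGTG, the core of the element that hypoxia-inducible factors bind, lies inside CACGTG, is left in lower case elsewhere, and was in 13 of the 40 windows against 18.5% of all windows. These matches describe the letters of the windows and not binding in these cells.

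The libraries held between 11789243 and 37591782 counts, with replicate 2 less deeply sequenced than replicate 1 in both zones. Levels are given below as normalized CPM, the counts of a gene relative to the scaled total of its library. Markers of the melanocyte lineage were near absent, with 6 of 8 under 1 CPM in every library, SOX10 at 0 counts in all, and a summed level between 2.91 and 6.06 CPM. The cells were instead high in markers of dedifferentiated melanoma, with AXL, VIM, SOX9 and NGFR summing to between 2488.9 and 3823.2 CPM, although NGFR itself was under 1 CPM in every library. Of the epithelial markers, all 4 stayed under 1 CPM in every library, as did 3 of 4 immune markers, whose sum was 1.82 and 1.39 CPM in the core and 0.400 and 0.421 CPM in the invasion zone. The 3 endothelial markers summed to 18.3 and 7.63 CPM in the core against 5.76 and 0.926 CPM in the invasion zone, nearly all of it PECAM1. Other programs differed between the zones as well. The 8 hypoxia-inducible factor targets, such as CA9, summed to 1224.4 and 1128.8 CPM in the core and to 382.9 and 289.8 CPM in the invasion zone. Each of the 7 targets tested was lower without overlap between zones, against 30.3% of all tested genes. The 6 proliferation genes, such as MKI67, summed to 438.2 and 811.3 CPM in the core and to 1294.4 and 1508.3 CPM in the invasion zone. All 6 were above without overlap, against 28.1% of all tested genes. The part of these programs and markers in the lipid gene differences below was not tested, and in bulk samples, fewer cells of a type and less RNA per cell cannot be told apart.

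Most of the lipid genes had a somewhat lower level in the invasion zone compared with the core, but the size of the difference varied from gene to gene. ABCA1, the cholesterol exporter, was lower by far more than the rest, at 4.71-fold. The fatty acid regulator SREBF1, the SREBP anchor INSIG2, the desaturase SCD and the droplet coat protein PLIN2 were lower by about 2-fold, whereas most enzymes between acetyl-CoA and cholesterol were within 1.5-fold of the core. PMVK, EBP, ACLY and ELOVL6 were higher in each invasion zone library than in either core library.

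A gene was called when it passed an adjusted p-value of 0.05 and a 2-fold change in edgeR's quasi-likelihood test, with p-values adjusted by the Benjamini-Hochberg method over all 15529 genes tested. Of the 35 genes, 34 passed the filter on low counts. The exception was ABCG1, an LXR-driven exporter, which had 0 counts in both core libraries and 1 and 0 counts in the invasion zone. None of the 34 was called higher and none lower, and neither was any other gene in the table (background 0% in each direction), with a smallest adjusted p-value of 0.128. With the unadjusted p-value and the 2-fold change, 0 were higher (background 2.92%) and 2 lower (background 5.85%), namely TM7SF2 and ABCA1. DESeq2 called 0 higher (background 2.28%) and 1 lower (background 3.53%), which was ABCA1, and limma voom called 0 in each direction (background 0%). When the replicate number was included as a block, edgeR called 0 higher (background 3.41%) and 3 lower (background 7.06%), namely SREBF1, TM7SF2 and ABCA1. Both libraries of replicate 2 deviated from those of replicate 1 in many genes, and this shared deviation is removed by the block. Without the 2-fold minimum, the blocked test called 4 higher (background 19.4%) and 14 lower (background 19.4%). In this last count, the 14 of 34 called lower are a larger share than in the whole table, whose genes were not matched to them in level. The same test called 14 higher and 23 lower of the 58 further lipid genes compared below. With the 2-fold minimum, the blocked and unadjusted shares were close to those of the whole table and say nothing about the lipid genes as a group. When single libraries were left out of the test without a block, between 1 and 6 of the genes were called lower, against 125 to 1137 of all genes, with ABCA1 called each time. The 6 and the 1137 both came without invasion zone replicate 1, and each such test takes the lone library of a zone to vary like those of the other zone.

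**Figure D1:**
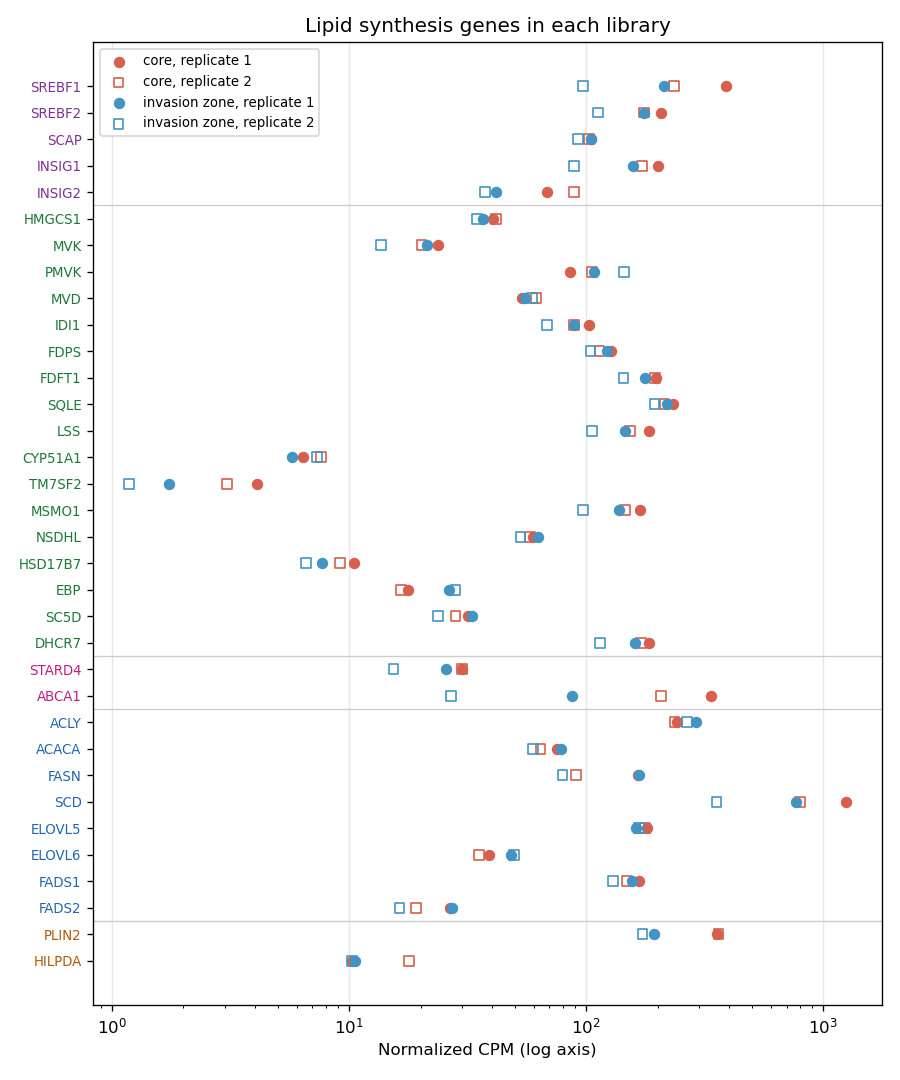
Normalized CPM of the 34 tested lipid genes in each library, on a log axis, with 1 row per gene and the genes coloured by role. Circles are replicate 1, open squares replicate 2, red the core and blue the invasion zone. In ABCA1, the invasion zone libraries (87.3 and 26.8 CPM) are left of the core libraries (335.9 and 206.2 CPM), whereas in FASN the libraries group by replicate.

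The median log2 fold change of the 34 tested genes (invasion zone over core) was -0.25, against -0.01 over all 15529 genes. It was -0.15 within replicate 1 and -0.33 within replicate 2. By this measure, 30 of the 34 genes were on the negative side and 4 on the positive side, whereas 50.7% of all tested genes were negative. The zones did not overlap in 21 of the 34 genes. The invasion zone was below the core in both libraries in 17 genes, against 30.3% of all tested genes, and above in 4 genes, against 28.1%. In 29 of the 34 genes, the difference was lower in replicate 2 than in replicate 1, compared with 58.4% of all tested genes. As the genes share their libraries, they are not replicates, and these counts are descriptions. An exact permutation test on 2 against 2 libraries cannot go below p = 0.333 (two-sided), and none was used.

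**Figure D2:**
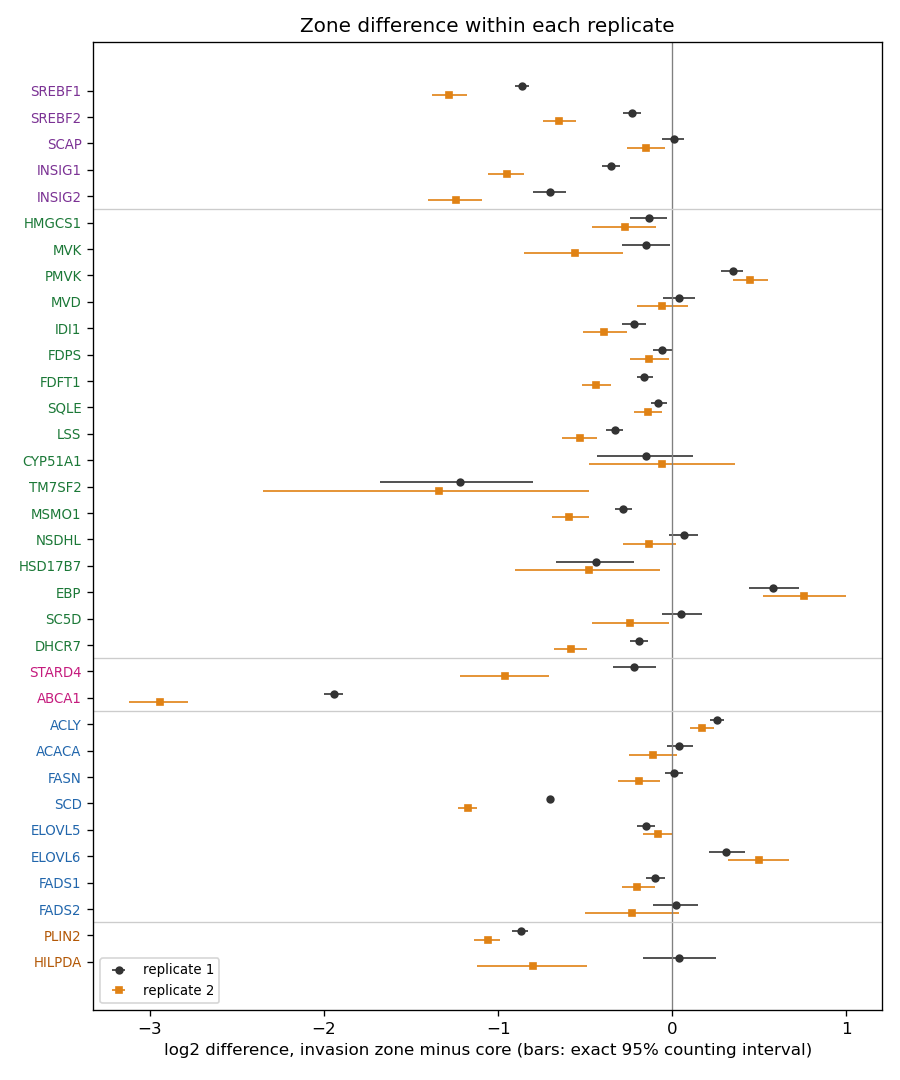
Difference between zones within each replicate for the 34 tested genes, in log2 units, as invasion zone minus core. Bars are exact 95% intervals for counting error only. In 22 genes both replicates are on the negative side and in 4 (PMVK, EBP, ACLY and ELOVL6) both are on the positive side.

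Of the 5 SREBP regulators, 4 did not overlap between zones and were lower in the invasion zone, against 30.3% of all tested genes. The group's median log2 fold change was -0.60. SREBF1 (chr17:17810399-17837002, minus strand, GENCODE 44 on GRCh38, as for all genes below) encodes SREBP1, the activator of fatty acid synthesis genes. Its level was 388.8 and 234.5 CPM in the core and 213.6 and 96.7 CPM in the invasion zone. The level in invasion zone replicate 1 was thus close to that in core replicate 2, and the zones were separated by little in comparison with the replicates. It was 2.01-fold lower in the invasion zone, with a standard error (SE) of 0.43 on the log2 scale and an adjusted p-value of 0.228 in edgeR. Errors after ± below are the SE of a log2 fold change from the edgeR fit to 2 libraries per zone. They were calculated back from the fitted coefficient and the F statistic of its test. The fit pools variability across genes, so an error can be smaller than the spread between a gene's replicates. For SREBF1, the log2 difference was -0.86 within replicate 1 and -1.28 within replicate 2. With the replicate block SREBF1 fell by 1.06 ± 0.10 on the log2 scale, with an adjusted p-value of 0.000151. This call was lost when offsets for GC content and length were added to the block, as the log2 fold change was then -0.79 and under 2-fold (adjusted p-value 0.000171). SREBF1 shares 556 of its 8234 exonic bases with RAI1 on the opposite strand, and no source used here gives the strand setting of the counting.

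SREBF2 (chr22:41833105-41907306, plus strand), which encodes the main activator of cholesterol synthesis genes, was at 205.8 and 175.9 CPM in the core and at 175.5 and 112.2 CPM in the invasion zone. Core replicate 2 and invasion zone replicate 1 had nearly equal levels. SREBF2 had a log2 fold change of -0.41 ± 0.24, with an adjusted p-value of 0.360 in edgeR and of 0.0105 with the block. When offsets for GC content and length were added to the block, SREBF2 was at -0.23, with an adjusted p-value of 0.0789. SCAP, the escort of both SREBPs, overlapped between zones, with a log2 fold change of -0.07 ± 0.14. Of SREBF1, SREBF2 and SCAP, SREBF1 had the most negative difference and SCAP the one nearest to 0.

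INSIG1 (chr7:155297776-155310235, plus strand), which retains SCAP in the endoplasmic reticulum and is itself an SREBP target, was at 201.0 and 171.9 CPM in the core. In the invasion zone it was at 157.4 and 88.9 CPM. The 2 zones did not overlap, but the invasion zone libraries differed from each other by more than replicate 1 differed between zones. Within replicate 1 the log2 difference was -0.35 and within replicate 2 it was -0.95. Over both replicates the log2 fold change was -0.60 ± 0.29, with an adjusted p-value of 0.271 in edgeR and of 0.00436 with the block. INSIG2 (chr2:118088452-118110997, plus strand), the other retention protein, was at 68.0 and 88.8 CPM in the core and at 41.7 and 37.5 CPM in the invasion zone. Its zones were well separated in both replicates, with a log2 fold change of -0.98 ± 0.19 and an adjusted p-value of 0.128 in edgeR. The blocked adjusted p-value was 0.000661, with a log2 fold change of -0.96 that is just short of the 2-fold minimum.

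The 17 sterol synthesis enzymes had a median log2 fold change of -0.20. Of these, 8 were below the core in both libraries (background 30.3%), 2 were above (background 28.1%) and 7 overlapped. None passed the 2-fold minimum with the block except TM7SF2, and without that minimum 6 passed as lower and 2 as higher. Adjusted p-values given below for changes under 2-fold with the block are for this test without the minimum, in which 19.4% of all genes passed in each direction. In the first, mevalonate part of the pathway, HMGCS1 (chr5:43287470-43313512, minus strand), which condenses acetyl-CoA and acetoacetyl-CoA, was at 40.3 and 41.7 CPM in the core and at 36.7 and 34.5 CPM in the invasion zone. All 4 libraries lay close together, with both invasion zone libraries at the lower end. HMGCS1 had a log2 fold change of -0.20 ± 0.14, with an adjusted p-value of 0.428 in edgeR and of 0.166 with the block. When offsets for GC content and length were added to the block, HMGCS1 was at -0.29, with an adjusted p-value of 0.0476. Of the 6627 exonic bases of HMGCS1, 2497 are shared with a gene on the opposite strand. The kinase MVK had a log2 fold change of -0.32 ± 0.26 and overlapped between zones. The next kinase, PMVK, was at 85.1 and 105.5 CPM in the core and at 108.3 and 144.4 CPM in the invasion zone. Its log2 fold change was 0.41 ± 0.20 in edgeR (adjusted p-value 0.282) and 0.40 ± 0.08 with the block (adjusted p-value 0.00503), which is under the 2-fold minimum, so that PMVK was called in neither. The decarboxylase MVD overlapped, with a log2 fold change of -0.01 ± 0.15.

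For the isoprenoid steps, the isomerase IDI1 had a log2 fold change of -0.29 ± 0.18 in edgeR (adjusted p-value 0.38). With the block it was -0.30 ± 0.09 (adjusted p-value 0.0270). FDPS, the farnesyl diphosphate synthase, overlapped between zones at -0.09 ± 0.15. Pseudogene copies of FDPS exist in the genome, and as only uniquely mapped reads were counted, its level is uncertain. FDFT1, the squalene synthase that commits the pathway to sterols, had a log2 fold change of -0.29 ± 0.16 in edgeR (adjusted p-value 0.318). With the block it was -0.29 ± 0.09 (adjusted p-value 0.0285). SQLE, which oxidizes squalene in a rate-limiting step, was at 231.8 and 214.0 CPM in the core and at 219.8 and 194.0 CPM in the invasion zone. Its zones overlapped, and the log2 fold change was -0.11 ± 0.14, with an adjusted p-value of 0.690 in edgeR and of 0.282 with the block. The zone difference of SQLE passed neither test. LSS, which closes the sterol rings, was lower in both invasion zone libraries, with a log2 fold change of -0.42 ± 0.21 and adjusted p-values of 0.278 in edgeR and 0.00392 with the block, again under 2-fold.

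Among the enzymes that turn lanosterol into cholesterol, TM7SF2 (chr11:65111845-65116384, plus strand), a sterol C14 reductase, had the most negative difference but also few counts. The counts were 146 and 46 in the core and 65 and 14 in the invasion zone, or 4.08 and 3.05 CPM against 1.73 and 1.18 CPM. The zones did not overlap. TM7SF2 had a log2 fold change of -1.26 ± 0.39, with an adjusted p-value of 0.155 in edgeR. With the block it fell by 1.28 ± 0.31 on the log2 scale, with an adjusted p-value of 0.0105. LBR, from the further lipid genes compared below, also encodes a sterol C14 reductase and is named after its values were seen. It went the other way, at 78.1 and 111.0 CPM in the core and 133.3 and 162.5 CPM in the invasion zone. Its log2 fold change was 0.65 ± 0.22 in edgeR (adjusted p-value 0.168). With the block LBR was at 0.66 (adjusted p-value 0.000551), which is under 2-fold. EBP, the sterol isomerase, was also higher in the invasion zone, at 26.5 and 28.1 CPM against 17.7 and 16.6 CPM in the core. The replicates of EBP lay close together in each zone, and its log2 fold change was 0.67 ± 0.16, with an adjusted p-value of 0.135 in edgeR and of 0.00336 with the block. EBP shares 644 of its 1768 exonic bases with another annotated gene on the same strand.

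The methyl sterol oxidase MSMO1 had a log2 fold change of -0.41 ± 0.21 in edgeR (adjusted p-value 0.289). DHCR7, which makes cholesterol from its last precursor in one branch, had one of -0.37 ± 0.20 (adjusted p-value 0.321). Both were lower in both invasion zone libraries. With the block they were at -0.43 ± 0.09 and -0.38 ± 0.10 and passed without a fold minimum, with adjusted p-values of 0.00664 and 0.0162. When offsets for GC content and length were added to the block, MSMO1 still passed (-0.61, adjusted p-value 0.000812). DHCR7 then no longer passed (-0.23, adjusted p-value 0.0884). HSD17B7, a sterol ketoreductase, was also lower in both libraries, but with an adjusted p-value of 0.0802 with the block it did not pass. With the offsets added to the block, HSD17B7 did pass without a fold minimum (-0.59, adjusted p-value 0.0298). A pseudogene copy of HSD17B7 exists, and its counts are therefore uncertain. NSDHL (-0.03 ± 0.15), SC5D (-0.07 ± 0.21) and CYP51A1 (-0.11 ± 0.27) overlapped between zones. CYP51A1, the lanosterol demethylase, shares 2844 of its 4171 exonic bases with other genes on the same strand, and its level of between 5.74 and 7.63 CPM is uncertain for this reason.

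Sterol export showed the largest difference of all 34 genes. ABCA1 (chr9:104781006-104928155, minus strand), which loads cholesterol and phospholipid onto apolipoprotein A-I, was at 335.9 and 206.2 CPM in the core and at 87.3 and 26.8 CPM in the invasion zone. The lowest core library was more than 2-fold above the highest invasion zone library. Within replicate 1 the log2 difference was -1.94, and within replicate 2 it was -2.94 (95% counting interval -3.12 to -2.78). In the fit over both replicates it was -2.24 ± 0.58 with an adjusted p-value of 0.135 in edgeR, and 1.29% of the tested genes had a more negative one. With the block ABCA1 fell by 2.39 ± 0.19 on the log2 scale, with an adjusted p-value of 8.43e-05, and in DESeq2 without a block the adjusted p-value was 0.000178. STARD4, which carries cholesterol through the cytosol and is an SREBP2 target, was at 29.8 and 30.0 CPM in the core and at 25.7 and 15.4 CPM in the invasion zone. Its log2 fold change was -0.53 ± 0.27, with adjusted p-values of 0.288 in edgeR and 0.0343 with the block. The difference rested mainly on replicate 2, where it was -0.96, against -0.22 in replicate 1.

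**Figure D3:**
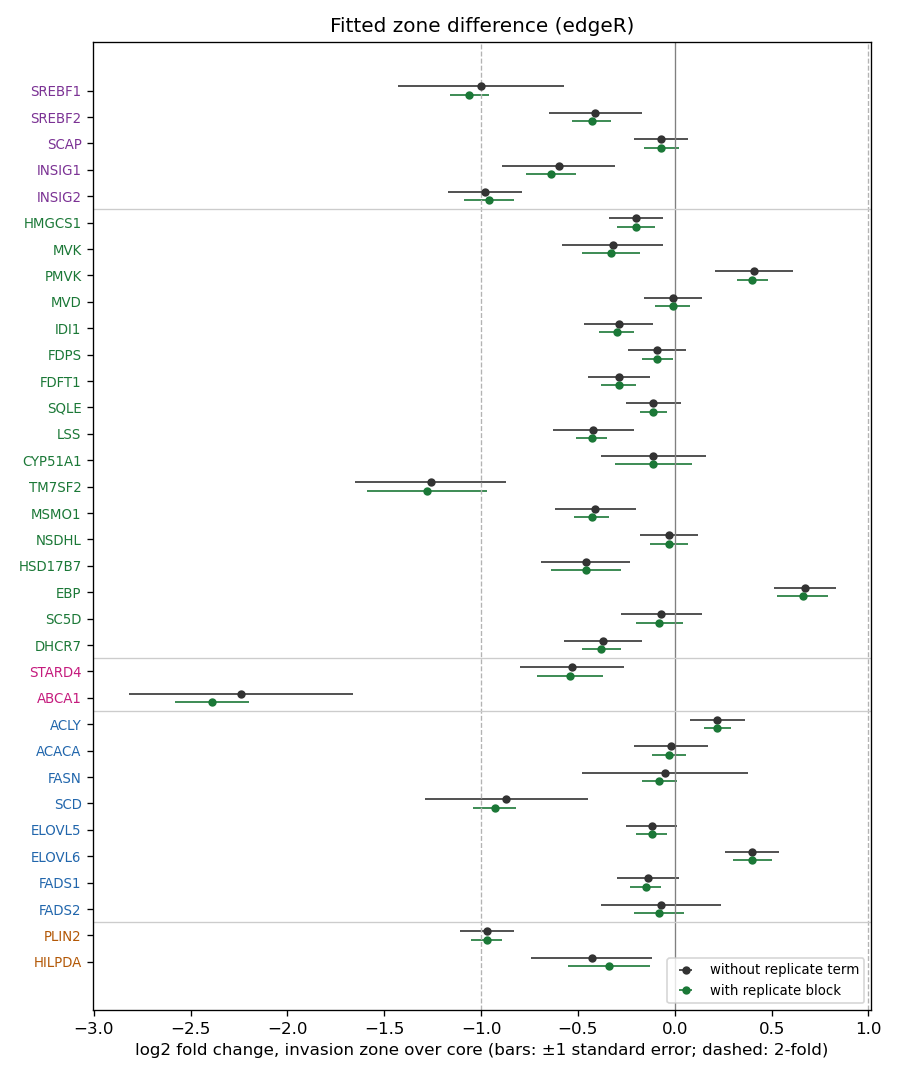
Log2 fold change of each of the 34 genes in edgeR without (black) and with (green) the replicate block. Bars are 1 standard error and the dashed lines mark the 2-fold change. The estimates hardly move, whereas the error of SREBF1 is 0.43 without and 0.10 with the block, and that of FASN is 0.43 without and 0.09 with it.

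The 8 genes of fatty acid synthesis and desaturation had a median log2 fold change of -0.06. Of these, 2 were above (background 28.1%), 2 below (background 30.3%) and 4 overlapped. SCD (chr10:100347233-100364826, plus strand), the desaturase that makes oleate from stearate, stood out. It was at 1248.7 and 799.7 CPM in the core and at 769.5 and 354.3 CPM in the invasion zone. Core replicate 2 and invasion zone replicate 1 were nearly level, but within each replicate the invasion zone was lower, by a log2 difference of -0.70 in replicate 1 and of -1.17 in replicate 2. In edgeR the log2 fold change was -0.87 ± 0.42, with an adjusted p-value of 0.267. With the block it was -0.93 ± 0.11 with an adjusted p-value of 0.000297, a change short of the 2-fold minimum. When CPM were divided by exonic length and rescaled to the same sum in each library (the TPM scale), SCD had the highest mean level of the 35 genes (618.3), followed by PMVK (454.2) and PLIN2 (222.1). Exonic length was that of all annotated exons of a gene merged, with 1002 bases for PMVK and 5011 for PLIN2. The order therefore depends on the annotation. On this per-length scale SCD ranged from 277.7 in invasion zone replicate 2 to 956.1 in core replicate 1.

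FASN (chr17:82078338-82098294, minus strand), the fatty acid synthase, differed between replicates rather than between zones. It was at 165.3 and 90.5 CPM in the core and at 166.6 and 79.4 CPM in the invasion zone. Its log2 fold change was -0.05 ± 0.43, with an adjusted p-value of 0.957 in edgeR and of 0.485 with the block. Replicate 2 was below replicate 1 by a log2 difference of -0.87 in the core and of -1.07 in the invasion zone. Upstream of FASN, ACLY, which makes cytosolic acetyl-CoA from citrate, was higher in both invasion zone libraries. Its log2 fold change was 0.22 ± 0.14 in edgeR (adjusted p-value 0.375) and 0.22 ± 0.07 with the block (adjusted p-value 0.0449). ACACA, the acetyl-CoA carboxylase, overlapped at -0.02 ± 0.19.

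Of the elongases, ELOVL6, which extends palmitate, was at 38.8 and 35.2 CPM in the core and at 48.3 and 49.6 CPM in the invasion zone. It had a log2 fold change of 0.40 ± 0.14, with an adjusted p-value of 0.180 in edgeR and of 0.0147 with the block. ELOVL5, which extends polyunsaturated fatty acids, was slightly lower in both libraries (-0.12 ± 0.13) and did not pass the blocked test (adjusted p-value 0.260). When offsets for GC content and length were added to the block, ELOVL5 was at -0.25, with an adjusted p-value of 0.0227. The polyunsaturated fatty acid desaturases FADS1 (-0.14 ± 0.16) and FADS2 (-0.07 ± 0.31) both overlapped. None of the 8 genes was called with the block. Without the fold minimum, 1 passed as lower (SCD) and 2 as higher (ACLY and ELOVL6), where 19.4% of all genes passed in each direction, and these small counts say nothing about the group.

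Of the lipid droplet genes, PLIN2 (chr9:19108375-19149290, minus strand), which coats droplets and is stabilized by stored lipid, was at 355.7 and 361.2 CPM in the core and at 194.0 and 172.9 CPM in the invasion zone. The replicates agreed closely in each zone, and the zones were far apart in comparison. PLIN2's log2 fold change was -0.97 ± 0.14, with an adjusted p-value of 0.128 in edgeR, which to this precision is the smallest in the table, and of 8.58e-05 with the block. In DESeq2 the adjusted p-value was 4.52e-05, and in all of these the change was just under 2-fold. HILPDA (chr7:128455849-128458418, plus strand), an inhibitor of droplet lipolysis that is also induced in hypoxia, was at 10.3 and 17.9 CPM in the core and at 10.6 and 10.3 CPM in the invasion zone. Core replicate 2 alone was high, and the other 3 libraries were level. The log2 fold change was -0.43 ± 0.31, with an adjusted p-value of 0.444 in edgeR and of 0.240 with the block. HILPDA shares 274 of its 2070 exonic bases with other genes on the same strand.

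For comparison, 67 further genes of the same pathways were examined, of which 58 passed the filter on low counts. Their median log2 fold change was -0.09. Both invasion zone libraries were above the core in 17 (background 28.1%) and below in 21 (background 30.3%). edgeR called none in either direction (2 higher and 6 lower with the unadjusted p-value, 2 higher and 3 lower in DESeq2), and with the block it called 2 higher (background 3.41%) and 6 lower (background 7.06%). These shares lie near those of the whole table. Those higher were TMEM97, a sterol-regulated endoplasmic reticulum protein, and NCEH1, a hydrolase of cholesteryl esters. TMEM97 was at 10.2 and 16.5 CPM in the core and at 29.2 and 39.1 CPM in the invasion zone, and it rose with the block by a log2 fold change of 1.39 (adjusted p-value 0.000132). NCEH1 was at 71.0 and 108.8 CPM in the core and at 174.7 and 217.6 CPM in the invasion zone, and it rose by 1.15 (adjusted p-value 8.43e-05).

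The 3 with the largest fold with the block among those lower were ELOVL3, NR1H3 and MYLIP. FABP3 (-1.29), NPC2 (-1.16) and ACSL3 (-1.09) were also called lower with the block. Without the block, FABP3 was at -1.37 and MYLIP at -1.33. NR1H3, which encodes LXR alpha, was at 28.7 and 24.7 CPM in the core and at 12.1 and 6.90 CPM in the invasion zone. Its log2 fold change was -1.47 in edgeR (adjusted p-value 0.128) and -1.49 with the block (adjusted p-value 0.000275). MYLIP, an LXR target that marks lipoprotein receptors for degradation, was at 8.63 and 6.50 CPM in the core and at 4.16 and 1.60 CPM in the invasion zone, and it fell by 1.38 (adjusted p-value 0.00455). ELOVL3, an elongase of saturated fatty acids, was at 1.45 and 1.66 CPM in the core and at 0.480 and 0.505 CPM in the invasion zone, and it fell by 1.63 (adjusted p-value 0.0191). It had few counts, with 52 and 25 in the core and 18 and 6 in the invasion zone. NR1H2, which encodes the other LXR and is named after its values were seen, was at 228.0 and 225.7 CPM in the core and at 189.2 and 200.2 CPM in the invasion zone. The zones of NR1H2 did not overlap. Its log2 fold change was -0.22 both in edgeR (adjusted p-value 0.355) and with the block (adjusted p-value 0.0435), which is under 2-fold.

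**Figure D4:**
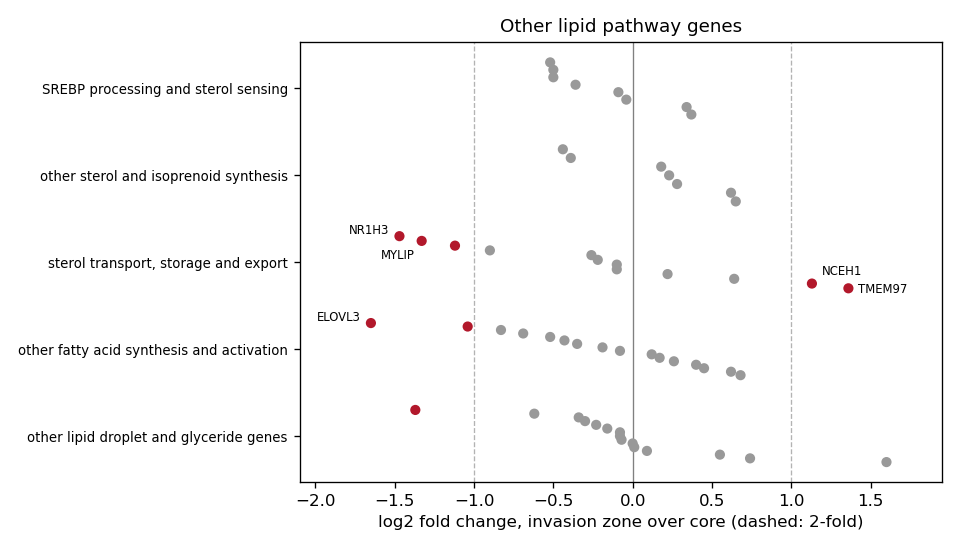
Log2 fold change (edgeR without a block) of the 58 tested further lipid pathway genes, with 1 point per gene in 5 groups. Red points were called with the replicate block at an adjusted p-value of 0.05 and a 2-fold change, which are 2 higher and 6 lower, and the dashed lines mark the 2-fold change.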

How the data were processed

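Per the study's methods, the authors removed ribosomal reads with Bowtie, aligned the rest to hg38 with STAR and used HTSeq to count reads that mapped once to a gene. The deposited values are raw counts. No source used here gives their versions, the annotation release or the strand setting. From its 56306 rows, 2 duplicates with no counts were dropped, and 98.1% of its identifiers are in GENCODE 44, from which gene positions and exons were taken.

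In R 4.3.3, genes with at least 10 counts at the median library size in 2 libraries and 15 in total were kept (15529). Counts were scaled by TMM (factors between 0.9855 and 1.009), and the zones were compared with edgeR 4.0.16 (glmQLFit, glmQLFTest), with no replicate term in the main test and Benjamini-Hochberg adjustment over all genes tested. Calls need an adjusted p-value under 0.05 and a 2-fold change. DESeq2 1.42.0, limma 3.58.1 (voom), other scalings and filters, offsets for GC content and length (known for 99.1% of tested genes), a replicate block and each library left out were alternatives. The scripts were tested on simulated data.

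The protocol takes the core and then its corresponding invasion zone from a spheroid, which was read as pairing same-numbered libraries, although no source used here says that the number marks a shared spheroid or day. Across genes, the deviations of same-numbered libraries from the zone means correlated at 0.584, over 2 pairs. Blocked values are given where they change a call or a count. Separate cultures are not stated, so p-values measure the spread between these libraries, which may be technical. Counting intervals (exact, 95%) cover counting error only, and amplified reads without molecular identifiers are not independent molecules.

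Members and lists were chosen with earlier results of these data known. All 35 members are described. Those with values in every library are the members called with or without the block, INSIG1, SREBF1, SREBF2, HMGCS1, SQLE, FASN, SCD, PLIN2 and HILPDA, and, as further illustration chosen after their values were seen, INSIG2, PMVK, EBP, STARD4 and ELOVL6. Of the further lipid genes, up to 3 called in each direction with the largest fold in the blocked test are described, and the others called are only listed. LBR and NR1H2 were added after their values were seen. Promoters of INSIG1, HMGCS1, SCD and HILPDA were to be shown where the table holds them, which left the first 3, and those of SREBF2 and ABCA1 were added after matches and values were seen.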

Additional observations from a re-analysis of the deposited data

How the results depend on the processing

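The count of lipid genes called lower was 0 in the test without a block and also 0 with upper-quartile or RLE scaling, limma voom, no fold minimum, a filter of 10 counts or more in all 4 libraries, or GC and length offsets. It was 2 without a low-count filter (SREBF1 and ABCA1), 3 with the replicate block, 1 in DESeq2, 2 in DESeq2 with the block, 3 in limma voom with the block, 4 with the offsets and the block (INSIG2, TM7SF2, ABCA1 and PLIN2, whereas SREBF1 was lost at -0.79), and 2 with the unadjusted p-value. With the block and no fold minimum, 4 were higher and 14 lower. Among all genes tested, higher and lower calls, both 0 in the main test, became 427 and 846 without the low-count filter, 530 and 1097 with the replicate block, 354 and 548 in DESeq2, 427 and 731 in DESeq2 with the block, 575 and 1088 in limma voom with the block, 548 and 1045 with the offsets and the block, 3010 and 3009 with the block and no fold minimum, and 454 and 909 with the unadjusted p-value. For the further lipid genes these were 2 and 5, 2 and 6, 2 and 3, 2 and 4, 2 and 6, 2 and 6, 14 and 23, and 2 and 6, in the same order. The block changed no other call. With each library left out, the lone library of a zone being assumed to vary like the other zone's, between 1 and 6 lipid genes were called lower, all genes gave 13 to 632 higher and 125 to 1137 lower, and the further genes 0 to 3 higher and 0 to 7 lower. The 6 (SREBF1, INSIG1, INSIG2, ABCA1, SCD and PLIN2) came without invasion zone replicate 1, 2 came without core replicate 1 (INSIG2 and ABCA1), 2 without core replicate 2 (SREBF1 and ABCA1) and 1, ABCA1, without invasion zone replicate 2, and the median of the lipid genes ranged from -0.47 (without invasion zone replicate 1) to -0.13. ABCA1 ranged from -3.34 to -1.64, SREBF1 from -1.69 to -0.55, SCD from -1.53 to -0.41, INSIG1 from -1.07 to -0.25, STARD4 from -0.96 to -0.22, SREBF2 from -0.77 to -0.12, INSIG2 from -1.15 to -0.77 and PLIN2 from -1.05 to -0.89. The sign changed in the following genes, none of which was called in any test here. MVD was at 0.00 with RLE, DESeq2, DESeq2 with the block and limma voom with the block, and at 0.21 with the offsets with or without the block. With the offsets, SCAP was at 0.16, ACACA at 0.09, FASN at 0.26 (with the block, adjusted p-value 0.0261) and FADS2 at 0.13, or 0.12 with the block. With a library left out, SCAP ranged from -0.16 to 0.02, FDPS from -0.21 to 0.02, NSDHL from -0.16 to 0.09, SC5D from -0.34 to 0.14, ACACA from -0.23 to 0.15, FASN from -0.69 to 0.45, FADS2 from -0.50 to 0.24, MVD from -0.09 to 0.09, CYP51A1 from -0.28 to 0.07 and HILPDA from -0.77 to 0.03. Beyond the smaller number of libraries, the cause of these changes was not tested. The depth limits TM7SF2, with 14 counts in invasion zone replicate 2, and ABCG1, with 1 count in all. Of the further genes named, it limits ELOVL3, with 6 counts in invasion zone replicate 2, FABP3, with 9, and MYLIP, with 19.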
